A study of Mus musculus with 2 samples.

Results

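The 38 genes described here belong to the unfolded protein response and the integrated stress response. They were picked by name, with earlier results of these data known, and all 38 were found among the 20003 genes of the deposited count table. The labels describe the 2 libraries as mouse RAW 264.7 cells, an established macrophage line, given macrophage colony-stimulating factor (M-CSF) at 20 ng/mL and interleukin 4 (IL-4) at 10 ng/mL to push them towards the alternatively activated (M2) state. By the labels, the M2+GANT61 library had also received 10 µM GANT61, an inhibitor of the GLI factors of the Hedgehog pathway, and the M2+DMSO library its solvent, each from 4 h before IL-4. The labels' protocols give the exposure to IL-4 as 15 min in one place and 24 h in another and name no strain or genotype. Each group has 1 library, so that nothing below rests on replicates and no test across conditions was possible.

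The endoplasmic reticulum (ER) folds secreted and membrane proteins. When unfolded protein builds up there, IRE1, ATF6 and PERK signal to the nucleus through the factors XBP1, ATF6 and ATF4, and genes for chaperones, disulfide-forming enzymes and ER-associated degradation (ERAD) are induced. ATF4 is also made when other kinases phosphorylate the initiation factor eIF2, as in amino acid shortage, and it drives stress regulators such as CHOP together with enzymes that make serine, folate intermediates and asparagine. Macrophages and other secretory cells carry large amounts of this machinery in the resting state.

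The libraries held 61632784 reads (DMSO) and 57705874 reads (GANT61). Levels are given as counts-per-million (CPM) values after scaling by the trimmed mean of M values, the DMSO-labelled library first, and each ratio is the GANT61-labelled over the DMSO-labelled library with a 95% exact binomial interval that covers counting error only. A gene was called where the ratio was at least 1.5 or at most the inverse, the interval excluded 1 and the mean was at least 1 CPM. Of 13939 genes at that level, 14.1% were called higher, 10.3% lower and 24.4% in either direction, and their median log2 ratio was -0.01. The Hedgehog readout Gli1 had 32 and 7 reads, Ptch1 was at 22.6 and 23.0 CPM, and Hhip at 23.8 and 15.3 CPM. The values go against the labelled cell type: in the DMSO-labelled library fibroblast markers summed to 9269 CPM and adipocyte markers to 6674 CPM, beside 2444 CPM for macrophage markers, and milk protein transcripts were present. The numbering of the table columns differed from that of the sample titles, so the libraries are named by their labels.

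Promoters of the ER genes carry elements through which ATF6 and XBP1 act, and they are shown first because they mark the members that share a control sequence. RefSeq promoter windows, which run from 250 bases before to 50 bases after the annotated start (GRCm38.p6), were found for 35 of the 38 genes. They were searched on both strands for the ER stress response element (ERSE, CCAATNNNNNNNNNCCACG), its shorter form ERSE-II (ATTGGNCCACG), the unfolded protein response element (UPRE, TGACGTG) and the C/EBP-ATF response element (CARE, TGATGNAA) that ATF4 binds. The ERSE was present in 9 of the 35 members (25.7%), against 0.137% of the 27025 genes with a window. Each stretch below is written 5′ to 3′ on the strand of its gene, with the ERSE in capitals.
Hspa5 (chr2:34772015-34772053, plus strand): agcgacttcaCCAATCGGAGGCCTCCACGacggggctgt
Hsp90b1, distal (chr10:86705628-86705666, minus strand): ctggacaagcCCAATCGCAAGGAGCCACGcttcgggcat
Hsp90b1, proximal (chr10:86705523-86705561, minus strand): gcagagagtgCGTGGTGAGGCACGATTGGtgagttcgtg
Calr (chr8:84847065-84847103, minus strand): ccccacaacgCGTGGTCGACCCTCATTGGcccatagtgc
Canx (chr11:50325790-50325828, minus strand): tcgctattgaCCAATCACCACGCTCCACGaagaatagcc
Pdia6 (chr12:17266481-17266519, plus strand): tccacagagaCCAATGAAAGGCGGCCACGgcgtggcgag
Ero1lb (chr13:12565672-12565710, plus strand): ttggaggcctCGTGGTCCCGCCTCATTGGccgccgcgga
Dnajc3 (chr14:118937817-118937855, plus strand): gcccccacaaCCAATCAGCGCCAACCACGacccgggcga
Creld2 (chr15:88819510-88819548, plus strand): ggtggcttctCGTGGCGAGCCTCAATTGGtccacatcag
Syvn1 (chr19:6046522-6046560, plus strand): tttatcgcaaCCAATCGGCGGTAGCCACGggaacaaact

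In Calr, Ero1lb, Creld2 and the proximal match of Hsp90b1 the element lay on the opposite strand, so that its CCAAT part reads ATTGG at the right-hand end. The ERSE-II was found in 2 members, Dnajb11 and Herpud1 (5.71%, against 0.0444% of all genes). The UPRE was found in 1 member, Hspa5 (2.86%, against 2.22%). The CARE was found in 4, Herpud1, Trib3, Chac1 and Asns (11.4%, against 4.51%). The ERSE-II and CARE matches, with the element in capitals, show how far these members differ in sequence around a shared core.
Dnajb11, ERSE-II (chr16:22857843-22857871, plus strand): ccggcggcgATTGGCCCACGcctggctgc
Herpud1, ERSE-II (chr8:94386367-94386397, plus strand): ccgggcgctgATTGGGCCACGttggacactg
Herpud1, CARE (chr8:94386307-94386334, plus strand): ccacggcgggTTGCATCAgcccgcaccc
Chac1, CARE (chr2:119351039-119351066, plus strand): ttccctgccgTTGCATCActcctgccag
Trib3, CARE (chr2:152344028-152344057, minus strand): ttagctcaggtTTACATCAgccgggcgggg
Asns, CARE (chr6:7693215-7693242, minus strand): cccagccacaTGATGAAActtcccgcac

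**Figure D1:**
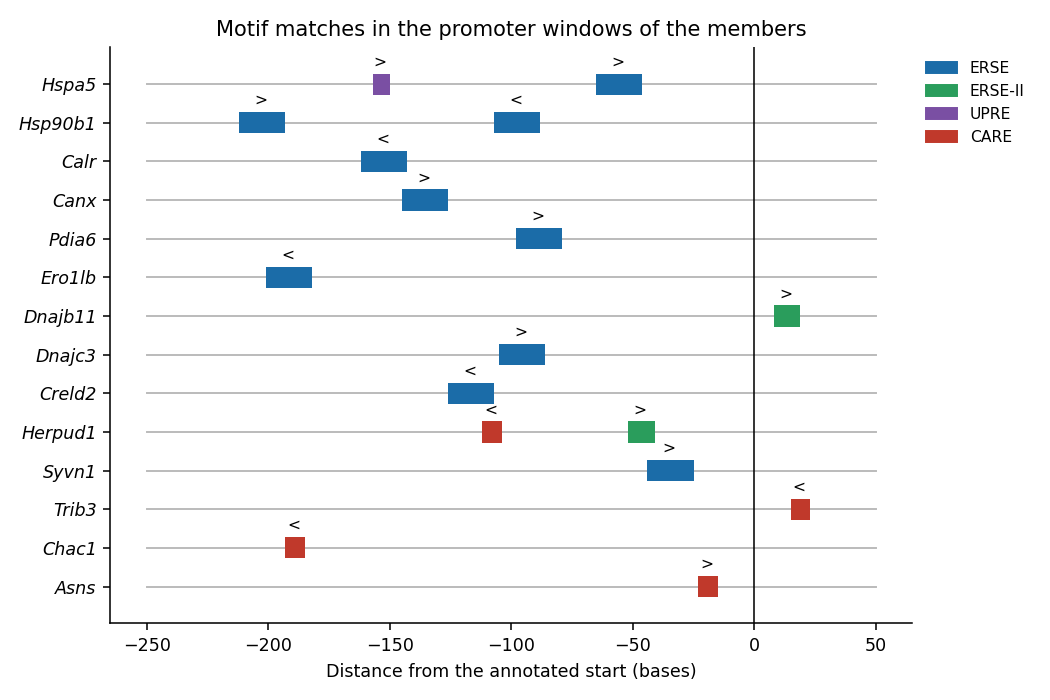
Position of each motif match in the promoter window of the 14 members that hold one, in bases from the annotated start (vertical line); bars span the match and the arrowhead above gives its strand relative to the gene. The 10 ERSE matches all lie upstream of the start, the closest in Syvn1 at 25 bases and the farthest in Hsp90b1 at 193 bases, while the matches of Dnajb11 and Trib3 lie after it.

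Over the 38 genes, 14 were called higher in the GANT61-labelled library and 0 lower (36.8% higher, where 14.1% of all genes considered were), and the median log2 ratio was 0.45. The ratio was above 1 in 35 of 38, among them Pdia3 and Dnajb9, whose ratios fell below 1 with library totals or upper quartile scaling, and it was above 1 in 49% of all genes considered. The interval lay above 1 for 33 members, below 1 for Pdia6, Xbp1 and Phgdh, and held 1 for Dnajb9 and Syvn1. At this depth most genes excluded 1, since the interval lay above 1 for 39.1% and below 1 for 40.5% of all genes considered. Summed over the members, the levels came to 9289 CPM (DMSO) and 11468 CPM (GANT61), a share of 0.943% and 1.13% of the reads. The called genes were not spread evenly over the roles: 4 of 6 ATF4 stress regulators and 6 of 11 IRE1 and ATF6 targets were among them, but 2 of 10 chaperones and oxidoreductases, 1 of 5 sensors and factors, and 1 of 6 ATF4-driven enzymes.

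**Figure D2:**
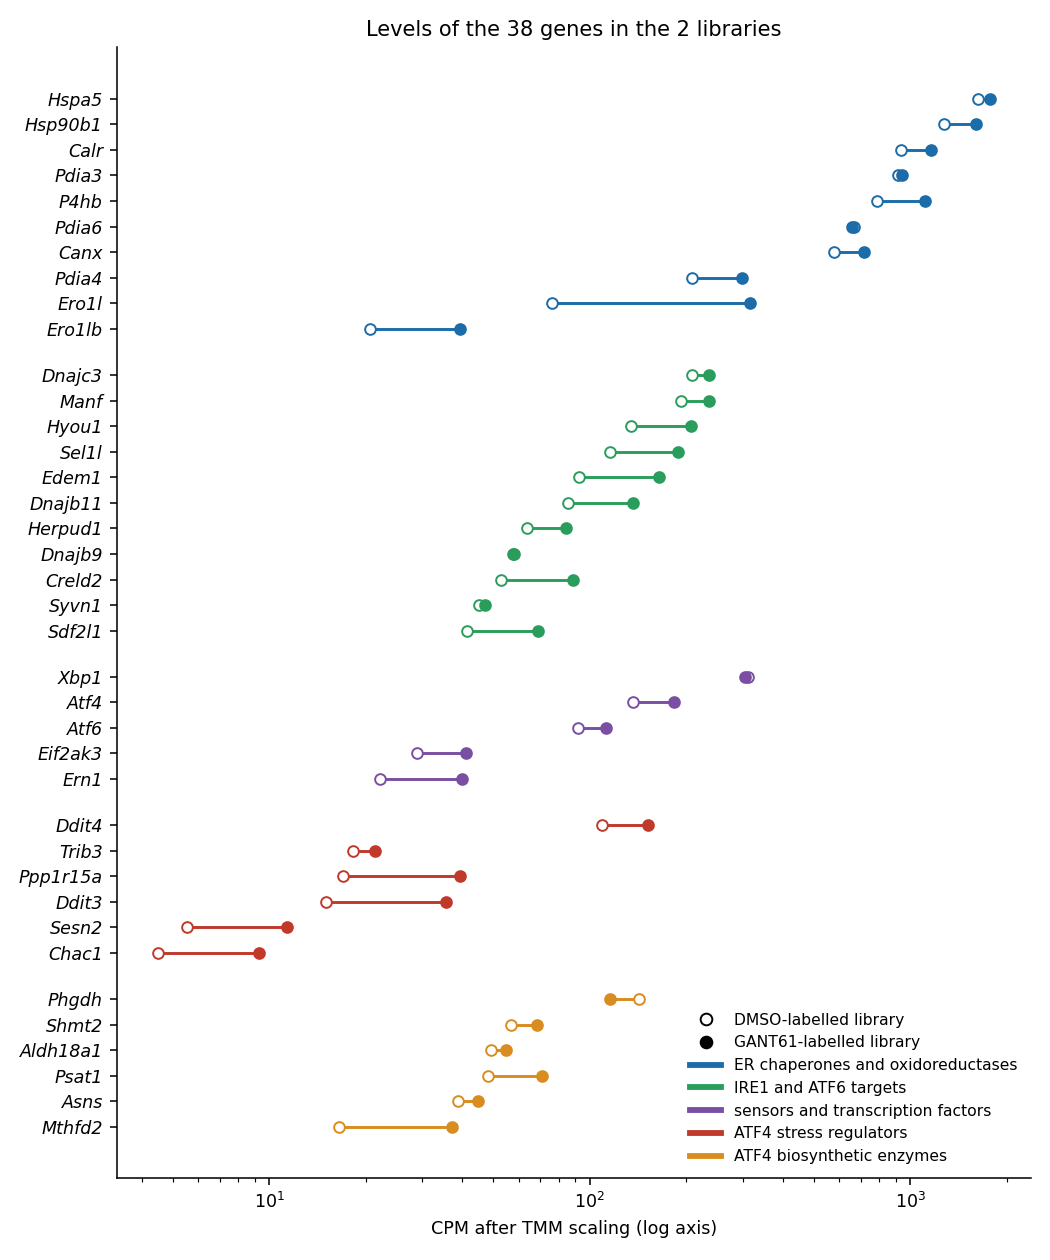
Level of each of the 38 genes in CPM (log axis), the DMSO-labelled library as an open and the GANT61-labelled library as a filled circle, 1 library each, in colours by role and ordered by the DMSO level. The widest gap is that of Ero1l, from 76.3 to 316 CPM, while the abundant chaperones at the top sit close together.

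None of the abundant chaperones was called. Hspa5, the Hsp70-type chaperone BiP that holds the stress sensors inactive (chromosome 2, 34771970 to 34777547, plus strand, GRCm38), had 101855 reads in the DMSO-labelled and 100468 in the GANT61-labelled library. That is 1627 and 1768 CPM, with a ratio of 1.09 (1.08 to 1.10). Per length it was the most abundant of the 38 in both libraries, at 493 and 534 in the deposited length-scaled values (RPKM), and its ratio exceeded that of 61.8% of all genes considered. Hsp90b1, the ER form of the Hsp90 chaperone, was at 1271 and 1602 CPM, giving a ratio of 1.26 (1.25 to 1.27). The lectin chaperones Calr and Canx, which hold newly made glycoproteins until they fold, were at 938 and 1164 CPM and at 577 and 716 CPM, and both had a ratio of 1.24.

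Protein disulfide isomerases form and reshuffle disulfide bonds in the ER. Pdia3, which works with the lectin chaperones, was at 916 and 939 CPM, giving a ratio of 1.03 (1.01 to 1.04). Pdia6 was at 668 and 658 CPM, giving a ratio of 0.985 (0.971 to 0.999). These isomerases were the chaperone group's nearest to equal levels. P4hb, which is both a disulfide isomerase and a subunit of collagen prolyl hydroxylase, was at 786 and 1113 CPM, giving a ratio of 1.42 (1.40 to 1.43). Pdia4 was at 208 and 297 CPM, giving a ratio of 1.43 (1.40 to 1.47), just short of the threshold. Of the 7 members above 500 CPM in both libraries, 0 were called. Among the 204 genes of all those considered at that level, 8.82% were called higher. At that share a count of 0 among 7 does not set these members apart. The median log2 ratio was 0.31 for these 7 members and -0.08 for the 204 genes.

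The called members of this group were the ER oxidases, which pass oxidizing equivalents to the isomerases. Ero1l, the widely expressed form that also responds to low oxygen (chromosome 14, 45283087 to 45318771, minus strand, GRCm38), had 4774 and 17939 reads. It was at 76.3 and 316 CPM, giving a ratio of 4.14 (4.01 to 4.27), the largest among the 38 and above that of 98.6% of all genes considered. Per length it stood 25th of the 38 in the DMSO-labelled library, at 13.7 RPKM, and 13th in the GANT61-labelled library, at 56.4 RPKM. Ero1lb, the form typical of secretory tissues such as pancreas, was much less abundant, at 20.6 and 39.3 CPM, with a ratio of 1.91 (1.78 to 2.04). No ERSE, ERSE-II, UPRE or CARE was found in the window of Ero1l, while Ero1lb holds the ERSE shown above.

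Ero1l and Ddit4 are often counted with the genes that respond to hypoxia. Of 20 other such genes, 12 were called higher and 0 lower, with a median log2 ratio of 0.68 and ratios from 0.773 to 4.03. The 8 that were not called included, named after their values were seen, Egln3 at a ratio of 0.773, Pdk1 at 1.02 and Pfkfb3 at 1.06. The called genes with the largest ratios follow. Hilpda, a lipid droplet protein, was at 16.3 and 65.7 CPM, giving a ratio of 4.03 (3.76 to 4.32). Slc2a1, which takes up glucose, stood at a ratio of 3.63 (3.52 to 3.74), Adm, a vasodilator peptide, of 2.66 (2.44 to 2.90) and Car9, a carbonic anhydrase, of 2.46 (2.26 to 2.67). Their part in the value of Ero1l was not tested.

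Among the IRE1 and ATF6 targets the median log2 ratio was 0.62, with 6 of 11 called higher, 0 lower and all 11 ratios above 1 with this scaling, but not that of Dnajb9 with library totals or upper quartile scaling. The ratios spanned a narrow range, from 1.01 to 1.78. Edem1, a lectin-like protein that hands misfolded glycoproteins to degradation, was at 92.8 and 165 CPM, giving a ratio of 1.78 (1.72 to 1.84). Sel1l, the scaffold of the ERAD ubiquitin ligase, was at 116 and 189 CPM, giving a ratio of 1.63 (1.59 to 1.68). Its partner Syvn1, the ligase itself (HRD1), was at 45.0 and 47.1 CPM, giving a ratio of 1.05 (0.993 to 1.10), so that the subunits of this complex did not differ by the same factor. The exons of Syvn1 share 91 bases with those of Mrpl49, a gene on the opposite strand at a ratio of 0.713. Herpud1, which helps to assemble it, was at 63.6 and 84.1 CPM, giving a ratio of 1.32 (1.27 to 1.38).

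The co-chaperones and secreted factors of the same group were split. Creld2 was at 53.0 and 88.9 CPM, giving a ratio of 1.68 (1.61 to 1.75), and Sdf2l1, which works with Dnajb11 on BiP clients, was at 41.3 and 68.9 CPM, giving a ratio of 1.67 (1.59 to 1.75). Dnajb11 itself was at 85.7 and 136 CPM, giving a ratio of 1.59 (1.54 to 1.65). These were called, as was Hyou1, the large Hsp70 relative that exchanges nucleotide on BiP, at 135 and 207 CPM. Its ratio of 1.54 (1.49 to 1.58) was the smallest among the called members, and it was not called with library totals or upper quartile scaling, or with the trend in gene length removed. Below the threshold were Manf, a secreted ER stress factor, at 192 and 236 CPM with a ratio of 1.23 (1.20 to 1.26), and Dnajc3, the co-chaperone also known as an inhibitor of eIF2 kinases, at 208 and 235 CPM with a ratio of 1.13 (1.11 to 1.16). Dnajb9, a co-chaperone often used as a readout of IRE1, was at 57.5 and 57.9 CPM, giving a ratio of 1.01 (0.960 to 1.06).

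Among the members, an exact ERSE match did not go with a larger ratio in these libraries. Members with a match include Hspa5, Hsp90b1, Calr, Canx and Pdia6, all above 500 CPM, and none of the ATF4 targets. The part of role and level in this comparison was not tested, and variants of the element were not searched for. The 9 members with the element had a median log2 ratio of 0.31, with 2 called higher, and the 26 members with a window but without it a median of 0.52, with 11 called. Among the 8 other genes considered with an ERSE, 3 were called higher and 1 lower, and the median was 0.18, beside -0.01 for all genes considered. The highest of these was Derl3, an ERAD channel component, at a ratio of 4.22, and the lowest Acacb, an acetyl-CoA carboxylase, at 0.210. The 4 members with a CARE had ratios from 1.15 to 2.06.

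**Figure D3:**
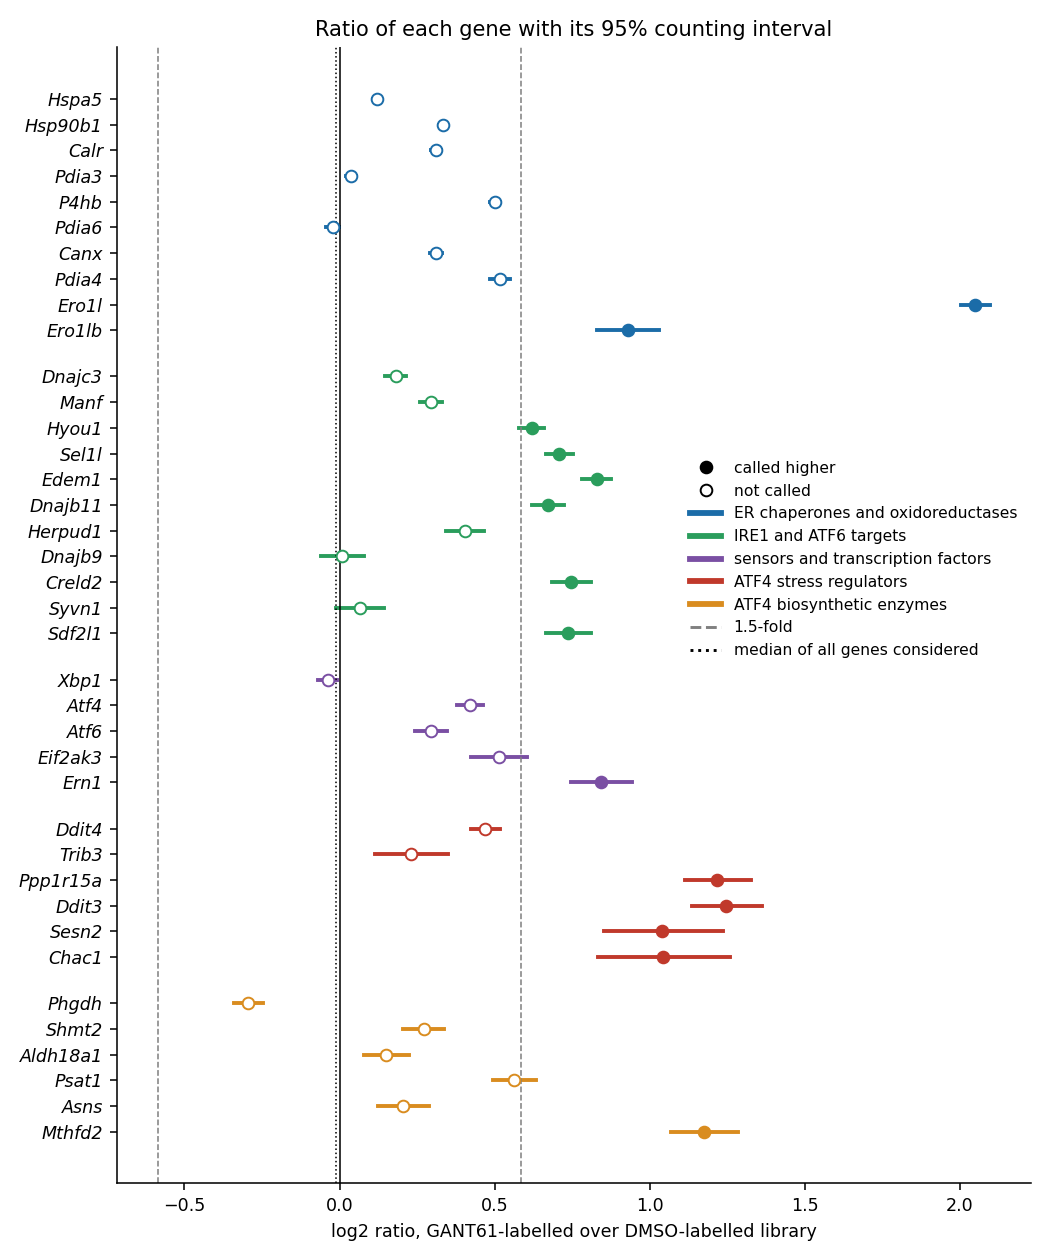
log2 ratio of the GANT61-labelled over the DMSO-labelled library for each gene, with its 95% counting interval as a bar; filled circles are called higher, dashed lines mark a 1.5-fold difference and the dotted line the median of all genes considered (-0.01). Most circles lie right of zero, and those past the dashed line are mainly IRE1 and ATF6 targets and ATF4 stress regulators.

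Of the 5 sensors and transcription factors, 1 was called higher and 0 lower. Ern1, which encodes IRE1, was at 22.2 and 39.9 CPM, giving a ratio of 1.80 (1.68 to 1.92), and was the called gene. Eif2ak3, which encodes the eIF2 kinase PERK, was at 28.8 and 41.1 CPM, giving a ratio of 1.43 (1.34 to 1.52), and Atf6, a membrane-bound factor released by cleavage in the Golgi, at 91.7 and 113 CPM, giving a ratio of 1.23 (1.19 to 1.27). Atf4 was at 137 and 183 CPM, giving a ratio of 1.34 (1.30 to 1.38), and Xbp1 at 312 and 304 CPM, giving a ratio of 0.974 (0.954 to 0.994). Because ATF4 is controlled mainly at translation, XBP1 by splicing of its mRNA and ATF6 by cleavage, counts per gene do not measure the activity of these factors.

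The ATF4 stress regulators had the highest median of the roles, 1.04, on low levels. Ddit3, which encodes the pro-apoptotic factor CHOP (chromosome 10, 127290774 to 127296288, plus strand, GRCm38), had 938 and 2022 reads, or 15.0 and 35.6 CPM, giving a ratio of 2.37 (2.20 to 2.57). Its exons share 68 bases with those of Mars, a transfer RNA synthetase gene on the opposite strand whose ratio was 1.14 (1.09 to 1.19), and whether the counting used strand is not given in the sources used here. Ppp1r15a, the GADD34 subunit that restores translation by removing phosphate from eIF2, was at 17.0 and 39.5 CPM, giving a ratio of 2.33 (2.16 to 2.51). Chac1, which degrades glutathione, had 281 and 526 reads, a ratio of 2.06 (1.78 to 2.39). Sesn2, an inhibitor of mTORC1, had 345 and 645 reads, also a ratio of 2.06 (1.80 to 2.35). These were the 4 called genes of the group, and Chac1 and Sesn2 were the least abundant of the 38 in both libraries.

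Trib3 and Ddit4 stayed below the threshold. Trib3, a pseudokinase that CHOP and ATF4 induce, was at 18.2 and 21.3 CPM, giving a ratio of 1.17 (1.08 to 1.27). Ddit4, the mTORC1 inhibitor REDD1, was at 109.5 and 152 CPM, giving a ratio of 1.39 (1.34 to 1.43). The 6 stress regulators among the members thus ranged from 1.17 to 2.37 in ratio.

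The ATF4-driven enzymes were closer to equal, with a median of 0.24. Mthfd2, a mitochondrial enzyme of the folate cycle, was at 16.5 and 37.2 CPM, giving a ratio of 2.26 (2.10 to 2.43), and was the called gene here. Its neighbour in the pathway, Shmt2, which moves a carbon unit from serine to folate, was at 56.6 and 68.3 CPM, giving a ratio of 1.21 (1.15 to 1.26). In serine synthesis, Phgdh, the first enzyme, was at 142 and 116 CPM, giving a ratio of 0.815 (0.790 to 0.842), the lowest of the 38, while Psat1, the next enzyme, was at 48.1 and 71.1 CPM, giving a ratio of 1.48 (1.41 to 1.55). Asns, the asparagine synthetase, was at 38.7 and 44.6 CPM, giving a ratio of 1.15 (1.09 to 1.22), and Aldh18a1, which starts proline synthesis, at 49.2 and 54.6 CPM, giving a ratio of 1.11 (1.06 to 1.17).

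**Figure D4:**
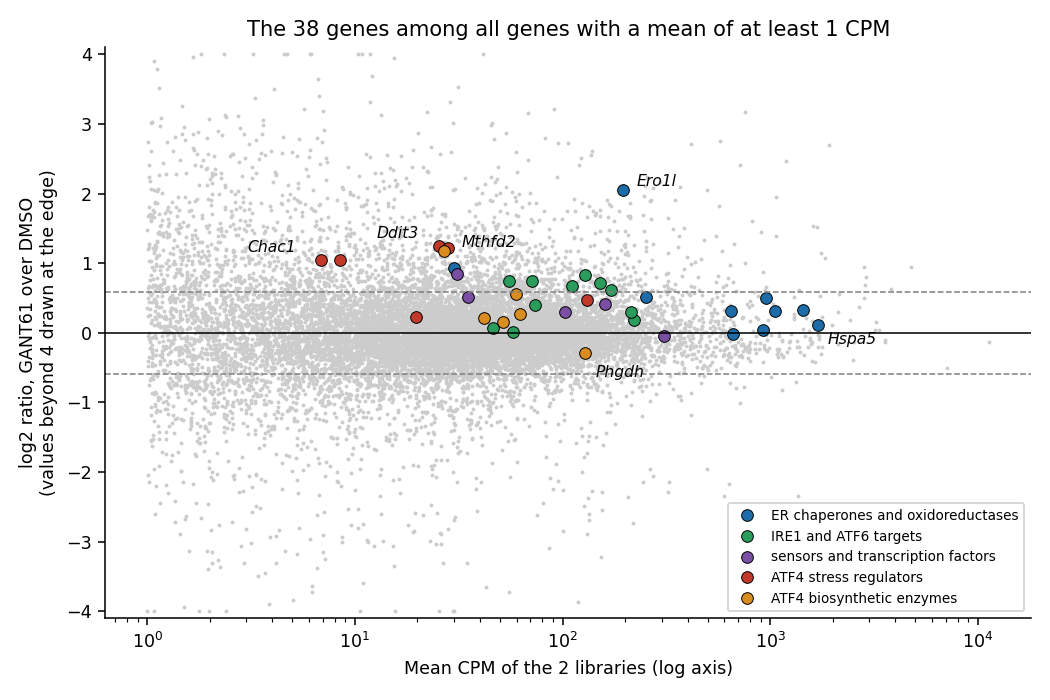
log2 ratio against mean CPM (log axis) for the 13939 genes considered (grey) and the 38 genes (coloured by role), with dashed lines at a 1.5-fold difference; values beyond 4 are drawn at the edge. The called members sit at low to middle levels, Ero1l the highest of them, and the 7 members above 500 CPM in both libraries lie within the dashed lines.

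The ratio went with the level among the members. Of 14 members below 50 CPM in the DMSO-labelled library, 8 were called higher, with a median log2 ratio of 0.79, and of 17 between 50 and 500 CPM, 6 were called, with a median of 0.42. Among all genes considered below 50 CPM in that library, 17.6% were called higher, with a median log2 ratio of 0.02. The share over all genes between 50 and 500 CPM was not computed, so the middle band has no background beside it. The bands use the DMSO level, which is also the lower part of each ratio.

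Other genes of the same pathways were taken from 7 lists made by function. The share called in either direction ran from 0% to 8.70% in 6 of these lists and was 29.2% in the serine, folate and amino acid list, beside 36.8% of the members and 24.4% of all genes considered. Of 27 other ER folding and redox genes considered, 0 were called in either direction, with a median log2 ratio of 0.09 and ratios from 0.763 to 1.31. The COPII and ER exit list had 0 of 23 called and a median of 0.02. The translocon and signal peptide list had 1 of 30 called higher and a median of 0.04. Its called gene was Sec11c, a signal peptidase subunit, at 55.8 and 102 CPM, giving a ratio of 1.83 (1.76 to 1.91). The list medians of protein entry and exit thus lay close to the background median of -0.01.

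In the ERAD list, 2 of 23 were called higher and 0 lower, with a median of 0.12. These were Derl3, with 127 and 488 reads and a ratio of 4.22 (3.47 to 5.19), and Sel1l3, a relative of Sel1l, with 341 and 1129 reads and a ratio of 3.64 (3.23 to 4.13). Of 28 other regulators of these responses, 2 were called higher and none lower, and the median was 0.01. One was Yod1, a deubiquitinase of ERAD, at a ratio of 1.60 (1.36 to 1.88). The other, named after its value was seen, was Creb3l3, at 1.23 and 1.97 CPM. The other eIF2 kinases, which were also named after their values were seen, did not pass the threshold: Eif2ak1 had a ratio of 1.21 and Eif2ak2 (PKR) of 0.745, and Eif2ak4 (GCN2) was at 26.9 CPM in both libraries.

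Of 28 other ATF4 and CHOP targets considered, transfer RNA synthetases among them, 2 were called higher and 0 lower, with a median of 0.11. Their ratios ran from 0.697 to 2.15 and were above 1 in 18 of the 28. Atf3, a stress-induced factor, was at 33.2 and 71.2 CPM, giving a ratio of 2.15 (2.03 to 2.26), and Jdp2, an AP-1 repressor, had a ratio of 1.54 (1.43 to 1.67). The serine, folate and amino acid list went both ways, with 3 of 24 higher, 4 lower and a median of -0.01. Aldh1l2, the mitochondrial folate enzyme downstream of Mthfd2, was at 3.53 and 11.2 CPM, giving a ratio of 3.18 (2.73 to 3.73). Its cytosolic relative Aldh1l1 was at 39.0 and 12.7 CPM, giving a ratio of 0.324 (0.298 to 0.352). Cth, which makes cysteine, stood at 0.282 (0.259 to 0.306), and Slc1a5, which carries glutamine, at 0.368 (0.356 to 0.380).

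**Figure D5:**
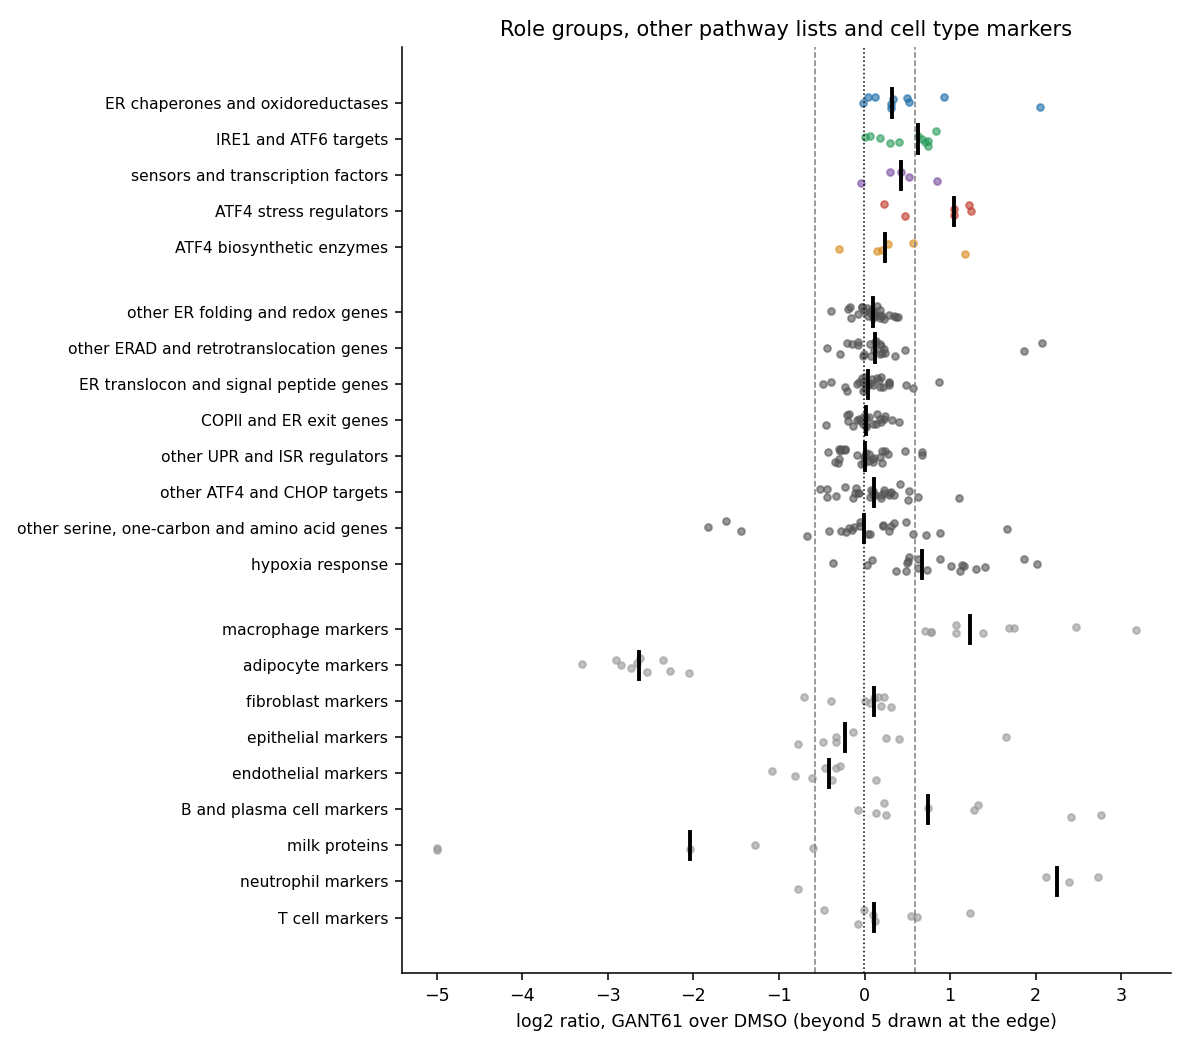
log2 ratio of every gene considered in the 5 role groups of the members, the 8 other pathway lists and the 9 cell type marker lists (points), with the list median as a black bar, dashed lines at a 1.5-fold difference and the dotted line at the median of all genes considered; values beyond 5 are drawn at the edge. The marker lists of macrophages (1.23) and adipocytes (-2.64) lie farther from zero than any role group.

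Markers of several cell types differed between the libraries by more than the members did. In bulk RNA, more cells of a type and more RNA per cell cannot be told apart. All 10 macrophage markers were called higher, and their sum was 2444 and 7739 CPM. Their most abundant genes were Lyz2, at 1177 and 2477 CPM, and Mrc1, at 363 and 2011 CPM. Adipocyte markers were called lower in 10 of 10, with a sum of 6674 and 1082 CPM and Car3 and Fabp4 as the most abundant. The members' sum differed by a factor of 1.23, against 3.17 for macrophage markers and 0.162 for adipocyte markers.

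Antibody-secreting plasma cells are known for high levels of the ER folding machinery. Of 9 B and plasma cell markers, 5 were called higher and 0 lower. Their median was 0.74, with a sum of 595 and 1800.1 CPM. Jchain, the joining chain of secreted antibodies, was at 225 and 1198 CPM, giving a ratio of 5.33 (5.23 to 5.43), and Sdc1, also an epithelial protein, at 242 and 405 CPM. Chosen after their values were seen, Mzb1, a plasma cell chaperone cofactor, had a ratio of 2.42 and Tnfrsf17, the plasma cell receptor BCMA, had 24 and 151 reads, while the B cell gene Cd79a had a ratio of 0.949. Of 8 neutrophil markers, 4 reached the minimum level, and of these 3 were called higher and 1 lower, with a sum of 140 and 672 CPM and Ltf and S100a9 the most abundant. Their median log2 ratio was 2.25, but it was 0.34 over all 8 without the minimum. There Camp, Elane and Mpo, which were named after their values were seen, had ratios of 0.589, 0.593 and 0.627 on 39 reads or fewer. Ly6g, the other marker below the minimum and also named after its value was seen, went the other way. It had 13 and 31 reads and a ratio of 2.57 (1.34 to 5.47).

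The remaining marker lists had medians nearer to zero, with milk proteins as the exception. Milk proteins were lower in 5 of 5 considered, with ratios from 0.00104 to 0.658 and a sum of 329 and 108 CPM, led by Csn2 and Csn3. Fibroblast markers had 0 of 9 higher and 1 lower and a sum of 9269 and 9482 CPM, with Col3a1 and Col1a2 the most abundant. Epithelial markers, led by Krt18 and Krt8, had 1 of 8 higher and 1 lower. Endothelial markers, led by Pecam1 and Cdh5, had 3 of 8 lower, and T cell markers, led by Lck and Cd3g, 2 of 8 higher. No marker of the 9 lists was at 0 reads in either library. The part of these cell types in the values of the 38 genes was not tested.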

How the data were processed

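Messenger RNA of 2 libraries, 1 per group, was sequenced on an Illumina instrument. The authors deposited expected counts, which are estimated counts of reads per gene without normalization. The authors also deposited RPKM values, in which length and depth are divided out. The submitters' processing notes name STAR, HISAT2, cutadapt, SAMtools and Partek with the builds mm10 and hg19; their roles, the counter, annotation and strand setting are not given in the sources used here. Of the deposited counts, 29.5% (DMSO) and 29.3% (GANT61) were not whole, so reads may have been split between similar or overlapping genes. Among the members, 11 had such counts and 8 shared exon bases with another listed gene (Hsp90b1, Pdia3, Pdia6, Manf, Syvn1, Ddit3, Ppp1r15a and Shmt2), so these values are less certain.

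Counts were rounded and scaled with edgeR 4.0.16 (TMM, R 4.3.3). Ratios used a prior count of 0.5 per library and Clopper-Pearson intervals (scipy 1.17.1), the whole table at once. These steps were tested on simulated counts drawn from a shared profile, with few genes changed and as many set higher as lower. That setting does not check the scaling for libraries that differ as widely as these. No molecular identifiers were counted, so reads may not be independent. Gene positions are from GENCODE M21 and promoter windows from RefSeq. The bases after the start matched a transcript in 33 of 36 member windows. Alternatives used DESeq2 1.42.0 and statsmodels 0.14.6. Python 3.11.15 was used with numpy 2.4.6 and pandas 2.3.3, and matplotlib 3.10.9 for plots.

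The members and lists were chosen with earlier results of these data known. All members are named. From each pathway list the called genes at or above 5 CPM with the largest log2 ratio, up to 4, are named, and from each marker list the 2 most abundant. Genes named otherwise are said to be chosen after their values were seen. The exceptions are the Hedgehog readouts, genes sharing exon bases with a member, and the highest and lowest other genes with an ERSE.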

Additional observations from a re-analysis of the deposited data

How the results depend on the processing

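The 38 ratios kept their direction where called under the 6 alternatives that change a ratio, and moved by at most 9.21%. With DESeq2 size factors, deposited RPKM, a prior count of 2, no filter or a minimum of 5 CPM, the same 14 members were called higher. With the library total or upper quartile scaling 13 were, without Hyou1. With the library total the median log2 ratio was 0.40 over the members, 0.28 in the chaperones and oxidoreductases, 0.58 in the IRE1 and ATF6 targets and 0.38 in the sensors and factors; with upper quartile scaling it was 0.28 in the chaperones. With a fold threshold of 2, 6 members were called higher (Ero1l, Ddit3, Ppp1r15a, Chac1, Sesn2 and Mthfd2), 972 of all genes higher and 595 lower, and 12 rather than 22 genes of the other pathway lists higher. With the trend in gene length removed, chosen after seeing the data, Psat1 was called in place of Hyou1, and the medians were 0.36 in the chaperones and 0.57 in the IRE1 and ATF6 targets. No paired analysis was possible because each group has 1 library. For the same reason no replicate could be left out. Depth was not the limit for the members, whose lowest count was 281 reads.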

Other observations

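Gene lists written after the data were seen give the chaperones of other compartments beside those of the ER. The genes named from these lists were also chosen after their values were seen. Of 14 cytosolic chaperones and their regulators, 0 were called in either direction, with a median log2 ratio of -0.14 beside -0.01 for all genes considered. The ratio was above 1 in 4 of the 14, among them Hspb1 at 1.38, Hsph1 at 1.36 and Dnajb1 at 1.21. Hsp90ab1, the constitutive cytosolic Hsp90, was at 2857 and 2170 CPM, giving a ratio of 0.759 (0.754 to 0.765), where its ER counterpart Hsp90b1 had 1.26. The other cytosolic Hsp90 gene, Hsp90aa1, was nearer to equal, at a ratio of 0.988 (0.978 to 0.998). Hspa8, the constitutive cytosolic Hsp70, was at 2645 and 2415 CPM, giving a ratio of 0.913 (0.906 to 0.919), where Hspa5 had 1.09. Of 12 mitochondrial chaperones and proteases, 0 were called, with a median of -0.14 and a ratio above 1 in 3. Among these 3 was Hspa9, the mitochondrial Hsp70, at 1.07 (1.05 to 1.09), close to the 1.09 of Hspa5. Hspd1, the mitochondrial chaperonin, had a ratio of 0.976 (0.959 to 0.993). Clpp, a matrix protease, had the lowest of the 12, 0.743 (0.697 to 0.791).

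A further list written after the data were seen held genes that modify and fold collagen in the ER. Of its 12 genes, 5 were called higher (41.7%, where 14.1% of all genes considered were) and 0 lower, with a median of 0.44. P4ha1 and P4ha2 were also counted in the hypoxia list, and P3h1 with the other ER folding and redox genes. The genes named here were likewise chosen after their values were seen. P4ha1, a catalytic partner of P4hb in prolyl hydroxylase and also in the hypoxia list, was at 98.8 and 218 CPM, giving a ratio of 2.20 (2.13 to 2.27). The lysyl hydroxylases Plod1, Plod2 and Plod3 had ratios of 1.80, 1.59 and 1.53. Serpinh1, the collagen chaperone, was at 394 and 375 CPM, giving a ratio of 0.950 (0.933 to 0.968), and the collagen gene Col3a1 had 1.12. These are values of single libraries, with no replicate check.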
